A study of Homo sapiens with 12 samples.

Results

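Ribosome biogenesis genes encode the proteins that transcribe, cut, modify and assemble ribosomal RNA in the nucleolus. A list of 48 such genes was compiled by function, with earlier results of these data known. For each gene, among probe sets carrying its symbol alone, the one whose mean over the 12 arrays was highest was taken. By this rule 42 of the 48 were measured, out of 19775 genes tested. NOP56, DKC1, BOP1, PPAN, DDX18 and GNL3 were not read through a single-symbol probe set and are not analysed here. The 42 genes fall into 5 roles: 7 encode RNA polymerase I subunits or factors, 7 encode proteins of small nucleolar ribonucleoprotein particles (snoRNPs), 12 encode factors of the small subunit, 9 encode factors of the large subunit, and 7 encode nucleolar growth proteins.

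In the nucleolus, RNA polymerase I makes a long precursor RNA from the ribosomal DNA repeats. SnoRNPs and processing factors modify and cleave it while ribosomal proteins are added, giving the small and the large subunit. Production of ribosomes is a main cost of cell growth, and it is known to be driven by growth factor signalling, in part through the transcription factor MYC, which binds the E-box CACGTG.

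PC9 (PC-9 in the labels) is a line of human lung adenocarcinoma cells whose growth relies on mutant epidermal growth factor receptor, and erlotinib is an inhibitor of that receptor. The control line had a GFP vector, a second line had a lentiviral construct for the microRNA precursor pre-miR-371, and the construct list in the methods gives a scrambled hairpin in a GFP vector as the control. Each line received the vehicle DMSO or 2 uM erlotinib for 24 h once it was nearly confluent, so all 4 groups share the PC9 background and a lentiviral vector, and the 3 arrays per group measured total RNA on the Affymetrix Hgu133plus2 platform. There was 1 line per construct, so an effect of the precursor and any other difference between the lines cannot be told apart. The labels number the 3 samples of a group without saying whether they came from separate cultures. The study's statistics section calls all of its replicates biological, without naming the arrays. P-values here reflect only the variation among these arrays, and the labels do not exclude that it is technical.

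Array values were log2 expression values already scaled between arrays, and values of different probe sets are not set against each other. Median values per array lay between 4.31 and 4.41 over all probe sets. The 6 genes used to check the drug label, which are 5 transcriptional outputs of ERK signalling and MYC, all fell with erlotinib in both lines: DUSP6, an ERK phosphatase, changed by -5.91 (GFP vector) and -6.00 (pre-miR-371) on the log2 scale, with erlotinib means of 3.35 and 3.58 that lay below every array's median, so that these sizes are not exact. Epithelial markers EPCAM, KRT8, KRT18, KRT19 and CDH1 had group means from 10.71 to 13.66. Fibroblast marker COL1A1 had group means from 6.83 to 7.07, and the 5 other fibroblast and 3 measured leukocyte markers had means from 2.71 to 4.89. In the bulk RNA of these cultures, fewer cells of a type and less RNA per cell cannot be told apart, and the labels give one amount of RNA for labelling, so a change in total RNA per cell is not measured.

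Sequence around the start sites was read from RefSeq promoters on GRCh38.p14, which hold 250 bases before to 50 bases after each start site, and 35 of the 42 members had at least 1 promoter there. The E-box CACGTG, which reads the same on both strands, was present in 16 of 44 member promoters, or 36.4%. Over all 35116 promoters of the table the share was 7.26%, and over the promoters of genes tested it was 8.36%. By gene, 16 of 35 members had an E-box (45.7%), against 10.9% of genes tested that had a promoter in the table. Windows of 30 bases are printed here for 8 of the members that carry the hexamer. They show where it sits in members with large responses and in members that are described further below. Large responses also occurred in members without an E-box, such as NOP16 and POLR1B, which have no window to print. CACGTG is in capitals, and each window is read 5′ to 3′ along the gene.
LYAR: cggcggcgagtcCACGTGctccccgcggcc
MRTO4: cgtcttccgccgCACGTGgattcagcgcga
PNO1: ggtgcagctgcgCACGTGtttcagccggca
RRP9: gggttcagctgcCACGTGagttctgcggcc
WDR43: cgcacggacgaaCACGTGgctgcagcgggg
DDX21: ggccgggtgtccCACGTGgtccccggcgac
UTP20: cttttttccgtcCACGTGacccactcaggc
PES1: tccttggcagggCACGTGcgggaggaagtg
Positions are counted from the start site, with negative values upstream of it. The windows are LYAR at chr4:4290068-4290097 on the minus strand with the hexamer starting at position -64, MRTO4 at chr1:19251807-19251836 on the plus strand with the hexamer starting at position 14, PNO1 at chr2:68157885-68157914 on the plus strand with the hexamer starting at position 9 and RRP9 at chr3:51941892-51941921 on the minus strand with the hexamer starting at position -5. The others are WDR43 at chr2:28894658-28894687 on the plus strand with the hexamer starting at position 3, DDX21 at chr10:68956604-68956633 on the plus strand with the hexamer starting at position -31, UTP20 at chr12:101280083-101280112 on the plus strand with the hexamer starting at position -10 and PES1 at chr22:30591880-30591909 on the minus strand with the hexamer starting at position 13. Hexamers at positive positions lie inside the transcribed sequence. Of 18 E-box copies in member promoters, 15 lay within 50 bases of a start site. Positions were not counted in promoters of other genes, so this count has no background beside it.

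The palindrome TCGCGA, the other hexamer counted, was in 6 of 44 member promoters (13.6%), against 3.12% of all promoters and 4.06% of those of genes tested, and its share was 13.9% for other ribosome biogenesis genes and 18.5% for ribosomal protein genes. For scale, CACGTG was in 28.7% of the promoters of other ribosome biogenesis genes, in 5.56% of those of ribosomal protein genes, in 8.82% of those of DNA replication genes and in 17.4% of those of mitosis genes. A match describes letters in a window and is not evidence of binding. By the paper, the transduced precursor yields mature microRNAs from both of its arms. The one made from the 3′ arm is shown, with its seed, bases 2 to 8, in capitals.
hsa-miR-371a-3p: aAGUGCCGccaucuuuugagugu
It lies at chr19:53787716-53787738 on the plus strand of GRCh38.p14. Its level was not read on these arrays.

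Nearly the whole group fell with erlotinib in GFP vector cells. The members were chosen with earlier results of these data known, so the counts and the shares beside them are a description. Of 42 members, 41 fell and none rose at an adjusted p under 0.05 in limma's moderated test, where 23.4% of all genes tested fell and 26.5% rose. The median log2 fold change of the members was -1.16, a 2.23-fold lower level, against 0.00 over all genes. A fall beyond 1.5-fold was seen in 38 members (11.7% of all genes tested). On 41 of the members all 3 erlotinib arrays read below all 3 DMSO arrays, as they did for 25.7% of all genes tested. Only UBTF, which binds ribosomal DNA and keeps it open for transcription, did not pass the test.

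**Figure D1:**
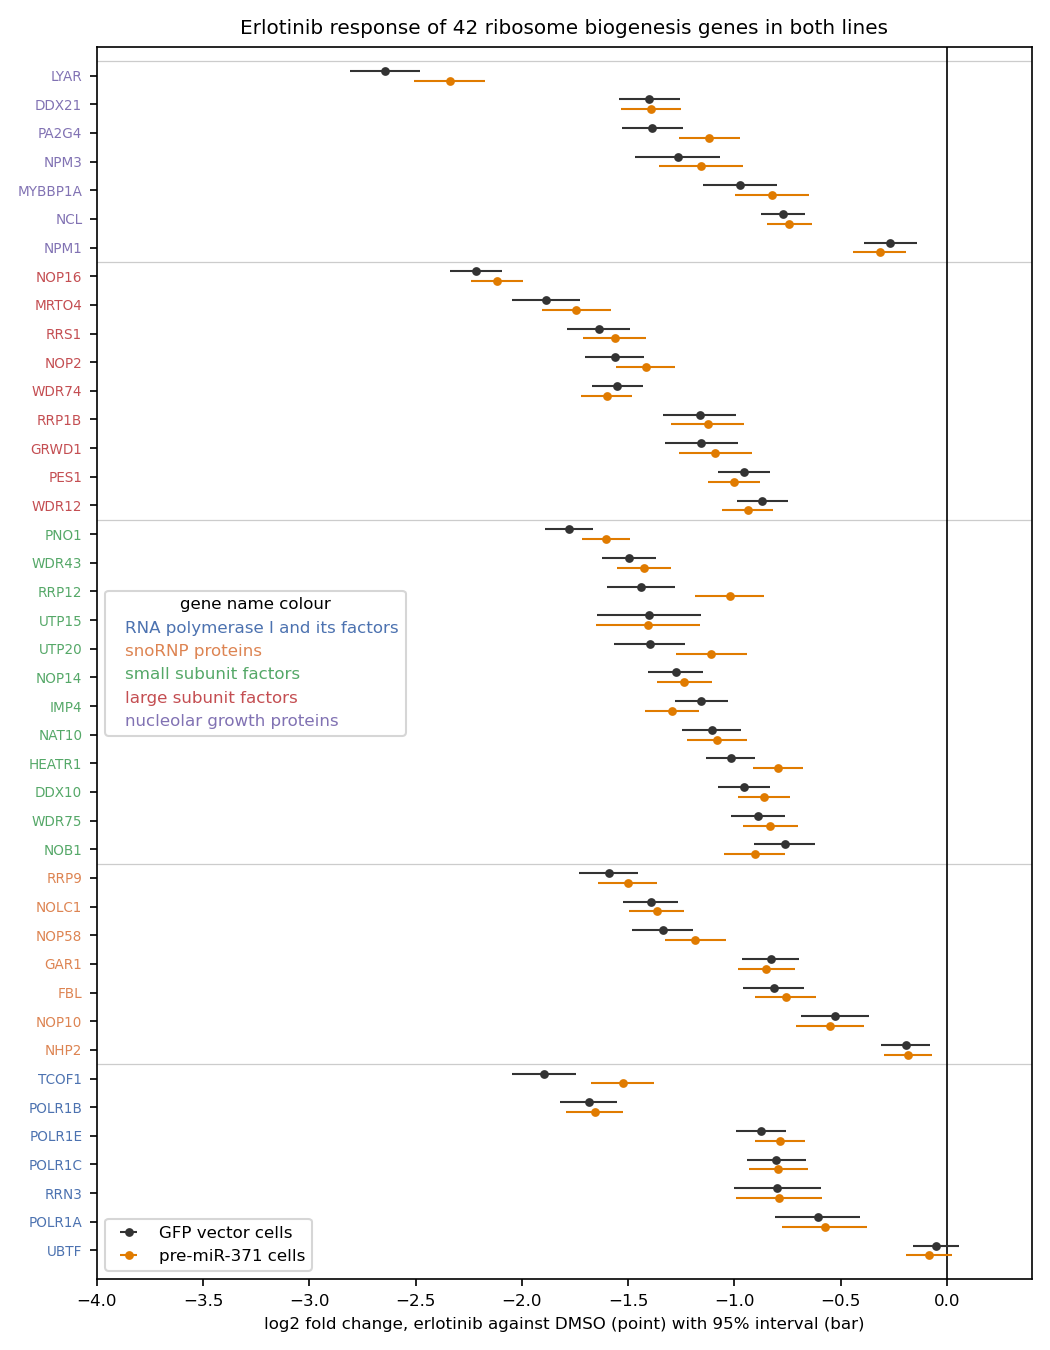
Log2 fold change of erlotinib against DMSO (horizontal axis) for each of the 42 members (vertical axis), grouped by role, in GFP vector cells (dark points) and pre-miR-371 cells (orange points), with 95% intervals from limma as bars. Every point lies below 0, from -2.64 for LYAR to -0.05 for UBTF in GFP vector cells, and the intervals of UBTF hold 0.

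Among RNA polymerase I and its factors, 6 of 7 members fell in each line. The largest response in GFP vector cells, with POLR1B ahead of it in pre-miR-371 cells, was that of TCOF1, which encodes treacle, a nucleolar scaffold that links polymerase I to the modification of its transcript. TCOF1 read 8.89, 9.01 and 9.02 on the GFP vector DMSO arrays and 7.15, 7.13 and 6.96 on the GFP vector erlotinib arrays. In pre-miR-371 cells it read 8.98, 8.91 and 8.96 with DMSO and 7.47, 7.34 and 7.46 with erlotinib. The DMSO values of the lines overlapped, and the erlotinib values of both lines were far below them, those of pre-miR-371 cells being the higher. The log2 fold change was -1.90 ± 0.0682 (SE, n = 3 per group, limma adjusted p = 3.53e-10) with the GFP vector and -1.53 ± 0.0682 (adjusted p = 2.95e-09) with pre-miR-371. With a different TCOF1 probe set, one with the plain suffix, the fold change in pre-miR-371 cells was -0.33 with an adjusted p of 0.0559.

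POLR1B, a core catalytic subunit, read 9.95, 9.99 and 9.92 with DMSO and 8.30, 8.31 and 8.18 with erlotinib in GFP vector cells. Its values in pre-miR-371 cells were 9.99, 10.09 and 9.91 with DMSO and 8.33, 8.33 and 8.35 with erlotinib, so that the treatments were apart and the lines close together. The log2 fold changes were -1.69 and -1.66, where, as in every pair of values from here on, GFP vector cells come before pre-miR-371 cells. The largest subunit, POLR1A, changed less, by -0.61 and -0.57 on the log2 scale. POLR1C, a subunit that polymerases I and III share, had values of -0.80 and -0.79, and POLR1E, a subunit that helps the enzyme engage its template, had -0.88 and -0.79. RRN3, the factor that brings polymerase I to its promoter and a known target of growth signalling, fell by nearly the same amount in both lines (-0.80 and -0.79). UBTF read 7.29, 7.25 and 7.21 with DMSO and 7.20, 7.23 and 7.17 with erlotinib in GFP vector cells, and these ranges overlapped. Its fold changes were -0.05 (adjusted p = 0.446) and -0.09 (adjusted p = 0.183). When all probe sets of a gene were averaged, UBTF passed in both lines, at -0.22 and -0.26.

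All 7 snoRNP proteins fell in each line, with medians of -0.83 with the GFP vector and -0.85 with pre-miR-371. RRP9, a protein of the snoRNP that guides the early cleavages of the precursor, read 8.02, 7.96 and 7.91 with DMSO and 6.40, 6.37 and 6.34 with erlotinib in GFP vector cells. In pre-miR-371 cells the readings were 7.79, 7.80 and 7.75 and 6.36, 6.32 and 6.15. Both treatments separated cleanly in both lines, and the log2 fold changes were -1.59 ± 0.0636 and -1.50 ± 0.0636 (SE, n = 3 per group). NOLC1, a chaperone of snoRNPs, had fold changes of -1.39 and -1.37. NOP58, a core protein of the box C/D particles that methylate ribosomal RNA, had -1.34 and -1.18, and FBL, the methyltransferase of the same particles, had -0.82 and -0.76. The core proteins of the box H/ACA particles, which guide pseudouridylation, differed among themselves. GAR1 changed by -0.83 and -0.85, NOP10 by -0.53 and -0.55, and NHP2 by -0.19 and -0.18. The NHP2 call was lost in both lines when quantile normalization was repeated, with adjusted p-values of 0.0512 and 0.0695.

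Each of the 12 small subunit factors fell in each line, with medians of -1.22 and -1.10. The largest response belonged to PNO1, which guards the cleavage site at the end of the small subunit RNA until late in maturation. PNO1 read 11.21, 11.16 and 11.12 in GFP vector cells with DMSO and 9.40, 9.42 and 9.34 with erlotinib. The corresponding values in pre-miR-371 cells were 11.19, 11.26 and 11.20 and 9.59, 9.60 and 9.65. DMSO arrays of the lines overlapped, while all 3 erlotinib arrays of pre-miR-371 cells lay above all 3 of GFP vector cells. The log2 fold changes were -1.78 ± 0.0517 (adjusted p = 6.05e-11) and -1.61 ± 0.0517 (adjusted p = 2.07e-10). NOB1, the endonuclease that makes that final cut, changed less, by -0.76 and -0.91.

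RRP12, which helps export the small subunit precursor from the nucleus, read 8.75, 8.71 and 8.65 with DMSO and 7.19, 7.30 and 7.30 with erlotinib in GFP vector cells. In pre-miR-371 cells it read 8.56, 8.48 and 8.46 and 7.54, 7.32 and 7.58. Pre-miR-371 cells were lower than GFP vector cells on every DMSO array and higher on every erlotinib array. Its log2 fold changes were -1.44 and -1.02, but a dimmer probe set of the same gene with the plain suffix gave 0.06 and 0.13 with adjusted p-values of 0.707 and 0.414, so the direction for RRP12 rests on the probe set chosen. The proteins of the early complex that assembles on the nascent precursor were WDR43 (-1.50 and -1.43), UTP15 (-1.40 and -1.41), HEATR1 (-1.02 and -0.80) and WDR75 (-0.89 and -0.83). Other factors of the precursor particle were UTP20 (-1.40 and -1.11), NOP14 (-1.28 and -1.24), IMP4, a protein of the snoRNP that RRP9 belongs to (-1.16 and -1.29), the RNA acetyltransferase NAT10 (-1.11 and -1.08) and the helicase DDX10 (-0.95 and -0.86).

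All 9 large subunit factors fell in each line, and this role had the lowest medians, -1.55 with the GFP vector and -1.42 with pre-miR-371. NOP16, a nucleolar protein of the early large subunit precursor, read 11.18, 11.31 and 11.20 with DMSO and 8.99, 9.07 and 8.97 with erlotinib in GFP vector cells. In pre-miR-371 cells the values were 11.19, 11.12 and 11.10 and 9.03, 9.01 and 9.02. The lines overlapped under each treatment. Fold changes of NOP16 on the log2 scale were -2.22 ± 0.0562 (adjusted p = 2.23e-11) and -2.12 ± 0.0562 (adjusted p = 4.40e-11), which is a 4.65-fold and a 4.34-fold lower level. MRTO4, a placeholder for a ribosomal stalk protein, read 10.04, 10.01 and 9.99 with DMSO and 8.17, 8.11 and 8.10 with erlotinib in GFP vector cells, and 9.89, 9.93 and 9.79 and 8.28, 8.13 and 7.98 in pre-miR-371 cells. Its erlotinib values in pre-miR-371 cells spread more widely and included those of GFP vector cells.

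RRS1, which helps bring the smallest ribosomal RNA into the large subunit, had fold changes of -1.64 and -1.56. NOP2, a ribosomal RNA methyltransferase, had -1.56 and -1.42, and WDR74, which acts with a remodelling ATPase, had -1.55 and -1.60. Smaller changes were seen for RRP1B (-1.16 and -1.13) and GRWD1 (-1.16 and -1.09). PES1 and WDR12 are partners in one complex with the unmeasured BOP1. PES1 was 1.94-fold and 2.00-fold lower, and WDR12 was 1.83-fold and 1.92-fold lower.

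The 7 nucleolar growth proteins all fell in each line and held both the member with the largest response and one of the smallest. LYAR, a nucleolar zinc finger protein of growing cells, read 10.14, 10.16 and 9.93 with DMSO and 7.53, 7.42 and 7.34 with erlotinib in GFP vector cells. It read 9.96, 10.05 and 9.91 and 7.66, 7.57 and 7.66 in pre-miR-371 cells. Its DMSO values overlapped between lines, and its erlotinib values were higher on every pre-miR-371 array. The log2 fold changes were -2.64 ± 0.0759 (adjusted p = 5.57e-11) and -2.34 ± 0.0759 (adjusted p = 2.13e-10), a 6.25-fold and a 5.06-fold lower level. The helicase DDX21, which works on polymerase I transcription and snoRNAs, had fold changes of -1.40 and -1.39. PA2G4, a growth-regulated RNA-binding protein, had -1.39 and -1.12, and NPM3, a nucleolar chaperone, had -1.27 and -1.16. The nucleolar corepressor MYBBP1A had -0.97 and -0.82. The abundant nucleolar protein NCL changed by -0.77 and -0.74. NPM1, the histone chaperone of the outer nucleolus, read 13.51, 13.61 and 13.58 with DMSO and 13.34, 13.25 and 13.32 with erlotinib in GFP vector cells, which is a small but complete separation. Its fold changes were -0.27 (adjusted p = 0.00158) and -0.32 (adjusted p = 4.72e-04).

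**Figure D2:**
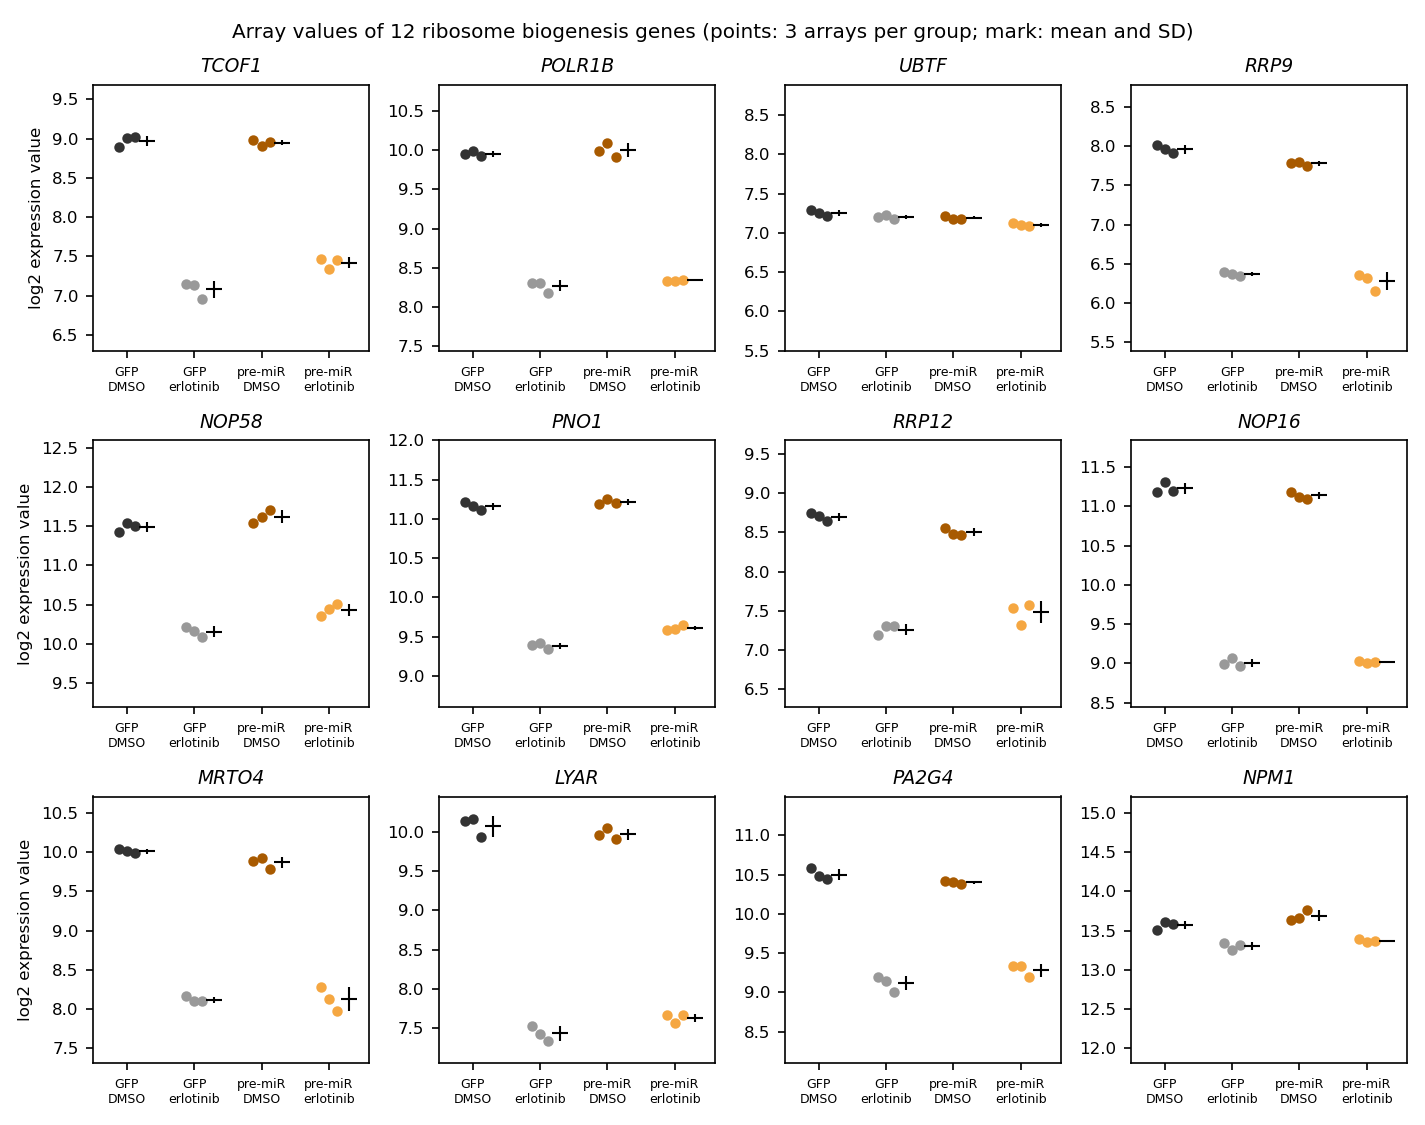
Log2 expression values (vertical axis, each panel spanning the same range of log2 units) of 12 members on every array, in the 4 groups of 3 arrays along the horizontal axis, with the mean and SD of each group beside its points. Erlotinib arrays lie below DMSO arrays of the same line in 11 of the 12 panels for both lines, and the exception is UBTF, where those of GFP vector cells overlap.

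The pre-miR-371 line gave the same count of calls. Of the 42 members 41 fell and none rose (22.2% of all genes tested fell and 24.8% rose), with a median log2 fold change of -1.10, or 2.14-fold, against -0.03 over all genes. A fall beyond 1.5-fold was seen in 37 members (9.33% of all genes). All 42 members had erlotinib arrays entirely below the DMSO arrays, as did 27.8% of all genes tested. The mean over the 42 members, after centring each gene on its own mean, was 0.60 ± 0.04 in GFP vector DMSO, -0.59 ± 0.03 in GFP vector erlotinib, 0.55 ± 0.01 in pre-miR-371 DMSO and -0.56 ± 0.02 in pre-miR-371 erlotinib (log2 units, SD, n = 3 arrays). On this scale the lines overlapped under both treatments.

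Members with a CACGTG in a promoter had a median log2 fold change of -1.34 with the GFP vector and -1.27 with pre-miR-371 (16 genes). Members with a promoter in the table and no E-box had medians of -0.89 and -0.86 (19 genes). The ranges overlapped widely, since the genes without an E-box included NOP16, and no test was made of this split. MYC itself changed by -1.55 with the GFP vector and -1.64 with pre-miR-371, and it was lower in pre-miR-371 cells, with a difference of -0.26 in DMSO (adjusted p = 0.0235) and -0.35 in erlotinib (adjusted p = 0.00219).

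Between the lines in DMSO, no member passed the test in either direction, while 3.64% of all genes tested were lower in pre-miR-371 cells and 1.62% were higher. At an unadjusted p under 0.05 in limma, 10 members were lower (13.8% of all genes) and 1 was higher (9.02%). The median difference was -0.05, and the 42 values ran from -0.29 for NPM3 to 0.20 for UTP15. The member nearest to the threshold was PES1, which read 10.14, 10.12 and 10.04 in GFP vector cells and 9.93, 9.90 and 9.83 in pre-miR-371 cells, and these ranges were apart (difference -0.21, adjusted p = 0.0512). Leaving out GFP vector DMSO replicate 3 gave 3 calls, all lower: PES1 (-0.24), POLR1E (-0.24) and NPM3 (-0.36).

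Under erlotinib 6 members differed between the lines. IMP4 and PES1 were lower in pre-miR-371 cells (9.46% of all genes tested were lower), and TCOF1, NOP58, PNO1 and HEATR1 were higher (6.5% of all genes tested were higher). The median over the 42 members was 0.01. IMP4 read 9.61, 9.67 and 9.55 on the GFP vector erlotinib arrays and 9.36, 9.35 and 9.28 on those of pre-miR-371 cells, a difference of -0.29 ± 0.0575 (SE, n = 3 per group, limma adjusted p = 0.00691). PES1 read 9.10, 9.13 and 9.20 and 8.94, 8.86 and 8.86 (-0.26, adjusted p = 0.01). Both were also lower on every DMSO array of pre-miR-371 cells, without passing the test there.

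Of the genes that were higher, TCOF1 differed by 0.35 (adjusted p = 0.00634), with values given above that did not overlap. That call was lost with the plain probe set (0.38, adjusted p = 0.0752) and with the methods' t-test (adjusted p = 0.0806). NOP58 read 10.21, 10.16 and 10.08 in GFP vector cells and 10.35, 10.44 and 10.51 with pre-miR-371, again with no overlap, and differed by 0.28 (adjusted p = 0.0143). PNO1 differed by 0.23 (adjusted p = 0.0129). HEATR1, a scaffold of the early small subunit precursor, read 9.46, 9.54 and 9.45 and 9.67, 9.69 and 9.64 (0.18, adjusted p = 0.0392). With the mean of all HEATR1 probe sets the difference was 0.08 (adjusted p = 0.3003). On the chosen probe set the call was lost in 9 of the 12 fits that left out 1 array, with adjusted p-values from 0.0508 to 0.114, and the arrays whose loss kept it were GFP vector DMSO replicates 1 and 3 and pre-miR-371 DMSO replicate 3. The NOP58 call was lost without GFP vector erlotinib replicate 3 (adjusted p = 0.0528) and also when pre-miR-371 erlotinib replicate 3 was left out (0.0597). None of the 6 differences reached 1.5-fold.

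The question of whether the erlotinib response is blunted in pre-miR-371 cells was asked of the difference between the responses, where a positive value means a smaller fall in pre-miR-371 cells. No member passed this test in either direction, while 1.44% of all genes tested passed upward and 0.561% downward. At an unadjusted p under 0.05 in limma, 7 members were higher (7.75% of all genes) and none were lower (7.29%). The median difference was 0.05 over the members and -0.01 over all genes, and 32 of 42 members had a value above 0, against 9206 of 19775 genes tested. The smallest adjusted p was 0.0699, that of the chosen probe set of RRP12, with a difference of 0.42 (95% interval 0.19 to 0.64), the largest of the members. Without pre-miR-371 erlotinib replicate 2, RRP12 was 0.50 with an adjusted p of 0.0333 and was the only member called.

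The other 6 members with an unadjusted p under 0.05 were TCOF1 (0.37, 95% interval 0.16 to 0.58), LYAR (0.30, 0.07 to 0.54), UTP20 (0.29, 0.05 to 0.53), PA2G4 (0.27, 0.06 to 0.47), HEATR1 (0.22, 0.06 to 0.39) and PNO1 (0.17, 0.01 to 0.33). They belong to 3 of the 5 roles, since none is a snoRNP protein or a large subunit factor. At the other end were NOB1 (-0.14, -0.35 to 0.06) and IMP4 (-0.14, -0.32 to 0.04), whose falls were the larger ones in pre-miR-371 cells. A miss of the threshold does not show equal responses: the 95% intervals had a median half-width of 0.20 log2 units, from 0.15 to 0.34, and 35 of the 42 held 0.

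**Figure D3:**
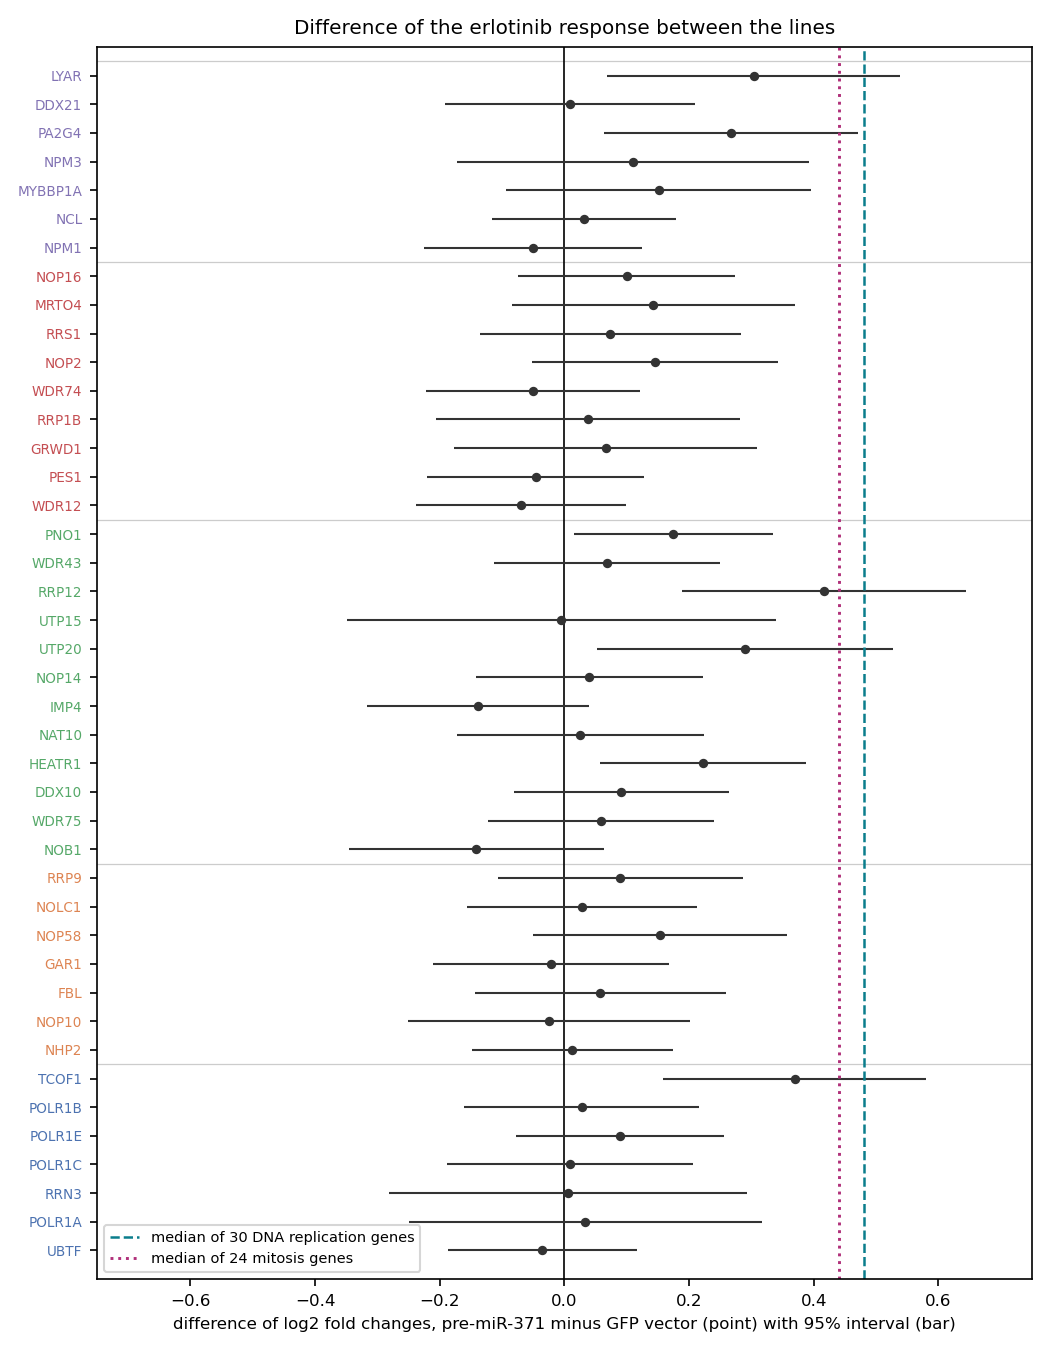
Difference of the log2 fold changes of erlotinib, pre-miR-371 minus GFP vector (horizontal axis), for each of the 42 members (vertical axis), with 95% intervals as bars. Dashed and dotted lines mark the medians of 30 DNA replication genes (0.48) and 24 mitosis genes (0.44), and all 42 points lie to the left of both.

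On the same arrays this test made calls among genes of proliferation. Of 30 DNA replication genes, 30 fell in each line, and the difference of responses passed the test upward in 21, with a median of 0.48. For example, CDC6, which loads the replicative helicase, had a difference of 0.80 (adjusted p = 0.00415). Of 24 mitosis genes, 23 fell with the GFP vector and 18 with pre-miR-371, and the difference passed upward in 11, with a median of 0.44. The 95% interval of the difference lay wholly below 0.48 for 38 of the 42 ribosome biogenesis members and wholly below 0.44 for 37. Both medians were taken as fixed values, from lists chosen with earlier results of these data known. All genes share the same arrays, so these counts are a description and not a test. Leaving out 1 array gave 13 to 20 upward calls of the difference among DNA replication genes, the fewest without pre-miR-371 DMSO replicate 2. Among mitosis genes it gave 5 to 11, with 5 without pre-miR-371 DMSO replicate 1, 6 without replicate 2 of pre-miR-371 DMSO or of pre-miR-371 erlotinib, and 7 without GFP vector DMSO replicate 2, pre-miR-371 DMSO replicate 3 or GFP vector erlotinib replicate 2. No test compared the lists as wholes.

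Expressed as a share, the log2 fall in pre-miR-371 cells was a median of 95.4% of that in GFP vector cells over the 41 members that fell there, with a range from 71.1% for RRP12 to 119% for NPM1, and it was the smaller of the pair in 32. The median share was 66.2% for DNA replication genes, where the fall was smaller in 30 of 30, and 50.5% for the 23 mitosis genes that fell in GFP vector cells, where it was smaller in 23. By role the members' medians were close together, from 91.3% for the nucleolar growth proteins to 96.4% for RNA polymerase I and its factors. These shares use the same DMSO and erlotinib arrays as the fold changes and carry no test. The share was not computed over all genes that fell in GFP vector cells, so no background stands beside it.

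**Figure D4:**
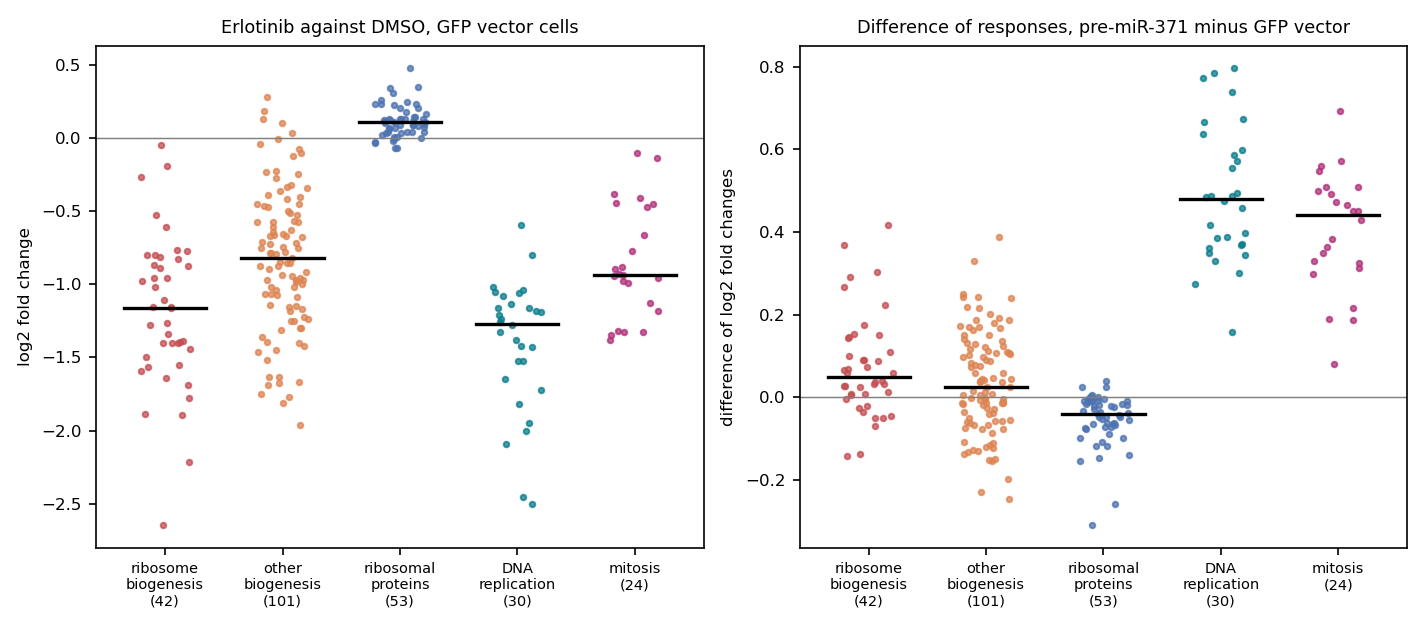
Log2 fold change of erlotinib in GFP vector cells (left) and difference of the responses, pre-miR-371 minus GFP vector (right), for each gene (points) of 5 lists, with the median of each list as a bar and the number of genes below each name. Ribosome biogenesis and DNA replication genes have similar medians on the left (-1.16 and -1.27) and separate ones on the right (0.05 and 0.48), and the medians of ribosomal protein genes are 0.11 and -0.04.

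Further genes of the pathway were taken from a list of 104, of which 101 were tested. In GFP vector cells 91 fell and 2 rose, in pre-miR-371 cells 92 fell and none rose, and the medians were -0.82 and -0.79. None passed the test of the difference of responses (3 were lower and 4 higher at an unadjusted p under 0.05), and the median was 0.03. POLR1G, a further polymerase I subunit, had the lowest fold change in GFP vector cells, -1.96. UTP4, of the same early complex as WDR43, changed by -1.52, and RPF2, which works with RRS1, by -1.42. TAF1C, of the polymerase I selectivity factor, and RIOK2, a kinase of late small subunit maturation, were the 2 that rose, by 0.19 and 0.28. The count of 2 was 1 without GFP vector DMSO replicate 2 or 3 and without any one of the GFP vector erlotinib arrays.

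Genes for the proteins of the finished ribosome gave other counts. Of 53 cytosolic ribosomal protein genes, none fell and 19 rose in GFP vector cells, 1 fell and 10 rose in pre-miR-371 cells, and the medians were 0.11 and 0.05. As shares, 35.8% rose against 26.5% of all genes tested in the GFP vector line, and 18.9% against 24.8% with pre-miR-371. The 19 became 11 without GFP vector DMSO replicate 2, 12 without GFP vector erlotinib replicate 1 or 2, and 10 to 33 under the other settings, the fewest with only the groups compared and the most with trend and robust eBayes. The 10 became 6 without pre-miR-371 DMSO replicate 1 and 6 to 23 under the other settings. The 1 that fell was no longer called without any one of the pre-miR-371 arrays or without GFP vector DMSO replicate 2. That count was also 0 with mean log2 at least 6 and with the replicate block. Other settings gave more falls in GFP vector and pre-miR-371 cells. These were 2 and 3 with the mean of all probe sets, 4 and 4 with the plain probe set, and 1 and 3 with the methods' t-test. With trend and robust eBayes, 1 fell in GFP vector cells. RPS27 rose by 0.34 and RPL34 by 0.35 in GFP vector cells. None of the 53 passed the test of the difference of responses, also at an unadjusted p under 0.05.

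The 42 members have 87 single-symbol probe sets in all, and 24 members have more than 1. Over the 87, 72 were lower and none higher with erlotinib in the GFP vector line, against 70 and none in the pre-miR-371 line. Of the 45 probe sets that were not chosen, those whose mean log2 value reached 6 were lower in 22 of 23 cases in GFP vector cells and in 21 of 23 in pre-miR-371 cells, and those with a mean under 6 were lower in 9 and 8 of 22. No probe set of any member passed the test of the difference of responses. All these calls came from a fit to every single-symbol probe set, with the adjustment made over those probe sets. Shares over all of them were not computed, so these counts have no background beside them. The chosen probe set of 16 members carries a suffix that marks probes shared with other transcripts, so that signals of those members may include related sequences.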

How the data were processed

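Expression was measured in PC9 cells with a GFP vector or pre-miR-371, treated with DMSO or 2 uM erlotinib for 24 h, on 3 Affymetrix Hgu133plus2 arrays per group. The deposited log2 values were made by the authors with quantile normalization. RMA and affy are the tools in the submitters' processing notes, with versions not given in the sources used here. Groups followed the sample labels. Of 54675 probe sets, 41097 paired with 1 gene symbol, 1801 with several and 11777 with none in the platform annotation, and 62 controls were left out. The probe set with the highest mean was used for each of 19775 genes, 19735 with a symbol updated through its gene identifier.

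Under R 4.3.3, 4 contrasts and the difference of responses were tested with limma 3.58.1 (moderated test, 1 mean per group over all 12 arrays), with Benjamini-Hochberg adjustment over all genes, 2-sided. Genes were called at an adjusted p under 0.05. The fit was tested on simulated data. The number of arrays limits the precision. Members and lists were chosen with earlier results of these data known. Named were, per role, up to 4 members with the largest response, members called between lines, and the extremes of the difference of responses; of other lists, up to 4 genes by smallest adjusted p. Further members, TAF1C and RIOK2 were named after their values were seen. No 2 arrays held identical values. Alternatives covered probe set choice, a filter on low values, scaling, the fit, the methods' t-test, the replicate block and leaving out each array. Promoter, start site and microRNA sequences were from RefSeq, GRCh38.p14.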

Additional observations from a re-analysis of the deposited data

Results flagged for a closer look

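The difference of erlotinib responses between the lines was past the test for 7 of the named genes outside the ribosome biogenesis group. For the DNA replication genes the values were 0.80 for CDC6, 0.67 for GINS2 and 0.67 for MCM6, and for the mitosis genes they were 0.56 for KIF11, 0.47 for CCNA2 and 0.51 for CDK1. EGR1, an immediate early gene of ERK signalling, had a value of 1.14 (limma adjusted p = 0.00615), but its erlotinib means of 3.92 with the GFP vector and 4.28 with pre-miR-371 lay below the median of every array, so that its size is not exact. The DMSO level of EGR1 was lower in pre-miR-371 cells (-0.78). EGR1 was the only 1 of the 6 drug check genes called in this test. The median difference of those 6 was -0.03, with 4 values below 0 and 2 above. These 7 were picked by smallest p from the called genes of their lists, so that they passed follows from the choice. The test was passed upward by 21 of 30 DNA replication and 11 of 24 mitosis genes, and downward by 0 of either list. Over all genes tested, 1.44% passed upward and 0.561% downward. In all 7 the fall was the smaller one in pre-miR-371 cells. No ribosome biogenesis member passed this test.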

How the results depend on the processing

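The counts of 41 members lower with erlotinib in each line were 41 in every fit that left out 1 array. For GFP vector and pre-miR-371 cells they were 40 and 39 with the plain probe set and 42 and 42 with the mean of all probe sets. Repeated quantile normalization gave 40 and 41, the methods' t-test 41 and 42, and the fold limit 38 and 37. Between lines in DMSO, the count lower (0) was 1 with the mean of all probe sets, 6 with genes of mean log2 at least 6, 5 with trend and robust eBayes, 7 with array weights, 10 unadjusted and 0 to 3 leaving out an array. The count higher (0) was 2, 1, 1 and 1 with trend and robust eBayes, array weights, the methods' t-test and unadjusted p. In erlotinib, the count lower (2) was 4 with trend and robust eBayes and 0 with a fold limit of 1.5. The count higher (4) was 8 with mean at least 6, 7 with quantile normalization repeated, 9 with trend and robust eBayes, 1 with the methods' t-test, 0 with the fold limit and 2 to 4 leaving out an array (2 without replicate 3 of either erlotinib group). For the difference of responses, the count higher (0) was 1 with the mean of all probe sets, 3 with mean at least 6, 5 with trend and robust eBayes, 2 with array weights, 7 unadjusted and 0 to 1 leaving out an array. TCOF1 was among those called under the first 4 of these settings. In this test the 21 DNA replication calls became 17 to 27 under the other settings and 13 to 20 leaving out an array, and the 11 mitosis calls 7 to 21 and 5 to 11. RRP12 with its plain probe set was 0.0639 (GFP vector) and 0.130 (pre-miR-371) under erlotinib. The unadjusted counts were added after seeing the data. The causes were not tested. Of the values of single members, 4658 kept direction and side of the threshold, 63 newly passed, 23 no longer passed and 2 reversed. Deviations from the group means correlated from -0.06 to 0.20 between same-numbered arrays. Arrays with different numbers were not compared, so this does not settle whether the numbers pair the samples. The replicate block left the counts at 41, 41, 0, 0, 2, 4, 0 and 0.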
